A study of Homo sapiens with 2 samples.

Results

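The genes of the NFE2, BACH and small MAF factors were examined for LDB1 binding in NB4 cells. The 9 genes were NFE2, NFE2L1, NFE2L2, NFE2L3, BACH1, BACH2, MAFG, MAFK and MAFF. An LDB1 peak was counted for a gene when it overlapped the GENCODE v44 gene body extended by 20 kb on each side. By this rule 16 of the 11046 deposited LDB1 peaks were found, and 8 of the 16 lay at NFE2. The windows of 6 of the 9 genes (66.7%, Wilson 95% interval 35.4 to 87.9%) held a peak, where 31.7% of all 20033 protein-coding genes did. NFE2L1, MAFK and MAFF had none. Window length was not allowed for in this comparison. The windows of BACH1, BACH2 and NFE2L2 measured 476681, 410316 and 214090 bp, where the median over protein-coding genes was 67471 bp.

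CUT&Tag, in which an antibody directs a transposase to cut and tag the DNA beside a bound protein, was carried out in NB4, a cell line from human acute promyelocytic leukemia. The labels describe 1 library with an LDB1 antibody from cells with LDB1 overexpression and 1 library with IgG from untreated cells, so that antibody and treatment cannot be told apart. The study's methods name NB4 cells for this assay and do not mention overexpression, so whether the peaks reflect endogenous or overexpressed LDB1 cannot be told. The deposited list gives the position and length of each peak in the LDB1 library, without height, score or summit, and the depth behind each peak is unknown. There were no replicates, so all values describe 1 library and no test between groups was made. Each interval covers counting error only, and peaks of 1 locus are not independent of each other.

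NFE2 encodes the larger subunit of NF-E2, a dimer that activates globin and platelet genes. NFE2L1, NFE2L2 and NFE2L3 are related activators, and BACH1 and BACH2 are repressors with the same type of DNA-binding domain. All of them bind DNA together with a small MAF protein (MAFG, MAFK or MAFF). The dimers recognise an extended AP-1 element, found at red cell enhancers. LDB1 does not bind DNA itself and is joined through LMO2 to the factors TAL1 and GATA1 or GATA2, whose composite element is an E-box remnant followed by a GATA site.

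The sequences in which the composite was found are given first, since they are the sites in the windows that carry the known element of the LDB1 complex. A composite was CTG, then 7 or 8 bases, then a GATA site (A or T, then GATA, then A or G), on either strand. The plus strand of hg38 is printed 5′ to 3′, with the composites in capitals and 30 bases on each side. All 5 stretches lie outside annotated exons. Each composite also counts as a GATA site, and each NF-E2 site as an AP-1 match. NFE2 and BACH2 are on the minus strand and BACH1 is on the plus strand.

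NFE2, longest peak, 2 composites, chr12:54295860-54295958: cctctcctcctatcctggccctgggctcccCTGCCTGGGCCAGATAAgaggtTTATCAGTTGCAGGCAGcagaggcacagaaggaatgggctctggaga
NFE2, longest peak, remaining composite, chr12:54296849-54296925: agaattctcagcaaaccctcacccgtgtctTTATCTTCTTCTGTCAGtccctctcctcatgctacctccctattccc
NFE2, upstream peak of 1799 bp, chr12:54304470-54304546: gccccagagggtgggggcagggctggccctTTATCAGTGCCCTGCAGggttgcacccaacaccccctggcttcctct
BACH1, peak of 1365 bp within GRIK1, chr21:29642062-29642137: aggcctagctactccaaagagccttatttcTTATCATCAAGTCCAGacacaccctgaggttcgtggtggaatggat
BACH2, peak of 707 bp, chr6:90045089-90045164: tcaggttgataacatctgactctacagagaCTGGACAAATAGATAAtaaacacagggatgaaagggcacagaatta

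The peaks were not shared out evenly among the genes. NFE2 had 8 peaks, which covered 9279 bp and made up 67.1% of the 13825 bp in peaks over the 9 windows. NFE2L2, BACH1 and BACH2 had 2 peaks each, and NFE2L3 and MAFG had 1 each. A peak touched the gene body at 3 of the 9 genes (33.3%), namely NFE2, NFE2L2 and BACH2, compared with 16.5% of all protein-coding genes. The same 3 genes had a peak within 3 kb of a transcription start site (TSS) of their own, compared with 10.7% of all protein-coding genes. Any annotated start counted here, and NFE2L2 had 44 start positions and BACH2 had 8. BACH2 was counted through a minor start, in a peak 77185 bp from its canonical TSS. Neither gene length nor the number of starts was allowed for. With 9 genes, these shares are known only roughly.

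**Figure D1:**
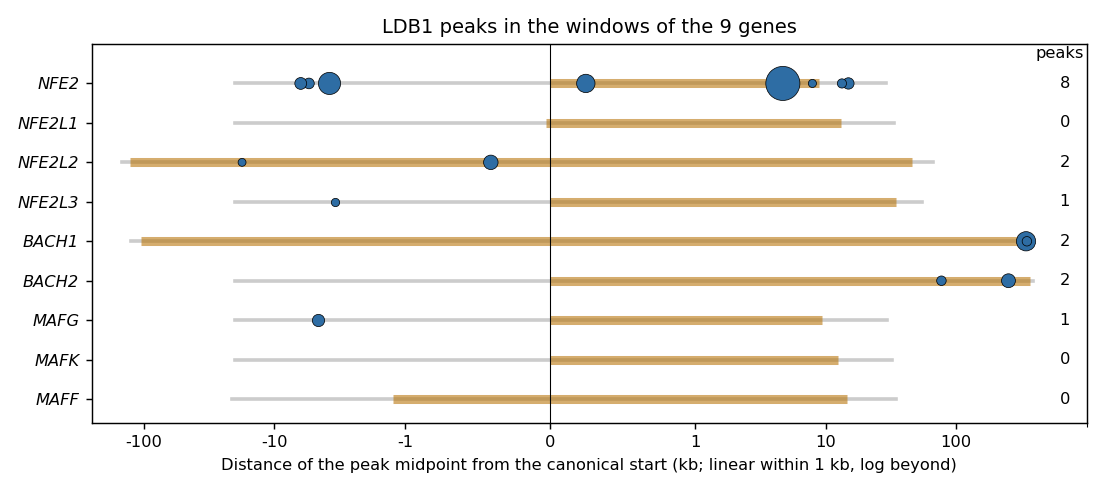
Each row is the window of 1 gene, with the gene body in orange and 20 kb on each side in grey, against the distance in kb from the canonical TSS in the direction of transcription (linear within 1 kb, log beyond). Circles are peak midpoints with an area in proportion to peak length, and the number at the right counts them. NFE2 holds 8 of the 16 peaks, and the 2 peaks of BACH1 lie beyond the far end of its body.

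The NFE2 window stood high among all genes. At least 8 peaks were found in the windows of 152 of 20033 protein-coding genes (0.759%). Among the 4643 genes whose window was no longer than that of NFE2 (48905 bp), 10 (0.215%) had as many. NFE2 had 16.4 peaks per 100 kb, which ranked 24th, and 190 bp in peaks per kb, which ranked 7th. The mean over protein-coding genes was 0.849 peaks per 100 kb and the median was 0. Peaks covered 60.4% of the NFE2 body of 8905 bp. Over all protein-coding genes, 6 (0.0300%, NFE2 included) had a body covered at least as much. Of the 17253 genes with a body of 5 kb or more, NFE2 was the 1 covered to this extent.

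**Figure D2:**
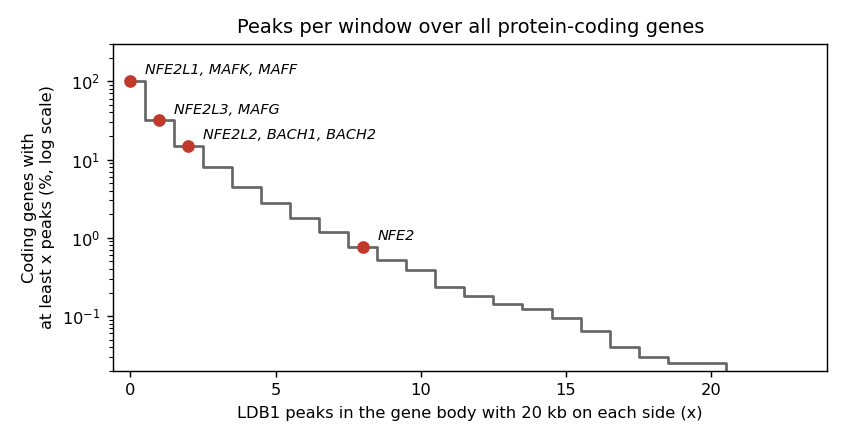
The line gives the percentage of all 20033 protein-coding genes (log scale) with at least x LDB1 peaks in the gene body with 20 kb on each side, and the points mark the 9 genes at their own number of peaks. NFE2 stands at 8 peaks and 0.759%, apart from the other genes at 0 to 2 peaks.

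NFE2 (ENSG00000123405.14) lies on chromosome 12 from 54292111 to 54301015 on the minus strand. Its 8 peaks spanned 21735 bp, from 54285824 to 54307558. Of these, 3 touched the gene body, 3 lay upstream and 2 lay downstream. The 3 upstream peaks and the 3 in the body were separated by gaps of 377 to 2511 bp, while 5141 bp separated the peaks in the body from the downstream pair. All 4 annotated NFE2 start positions lay in a peak, which was so for 2 of the 44 start positions of NFE2L2, 1 of the 8 of BACH2 and none of those of the other genes.

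The longest NFE2 peak (54294173 to 54298445, 4273 bp) was the fifth longest of the whole list. Its midpoint lay in intron 1 of the canonical transcript, 4706 bp downstream of the canonical TSS. It contained 3 further start positions of NFE2, at 54295758, 54295760 and 54297884. A peak of 1240 bp (54300149 to 54301388) covered the canonical TSS at 54301015 and also reached the start of the divergent gene COPZ1. The short peak of 243 bp (54292968 to 54293210) had its midpoint in the coding part of exon 3. In all, 357 of the 1119 coding bases of NFE2 (31.9%) lay in peaks, and no coding base of the other 8 genes did.

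Upstream of NFE2 the peaks measured 1799, 419 and 517 bp. They lay 3784 to 6285 bp from the canonical NFE2 TSS and inside the annotated body of COPZ1, a subunit gene of the vesicle coat, but outside its canonical transcript. The TSS of COPZ1 was closer to each of them than that of NFE2 (3579 to 6080 bp). Downstream, a peak of 476 bp had its midpoint in the last exon of HNRNPA1, an RNA-binding protein gene, and one of 312 bp lay just beyond that gene. The same 8 peaks fell in the windows of HNRNPA1 and COPZ1, and the COPZ1 window held 15. Which gene these peaks belong to was not tested.

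**Figure D3:**
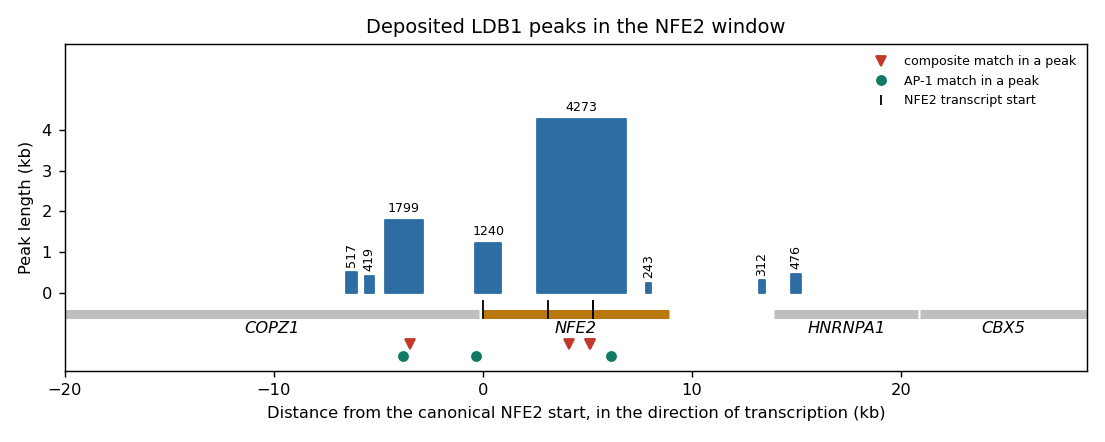
Each blue block is an LDB1 peak in the NFE2 window, with its extent on the horizontal axis (kb from the canonical NFE2 TSS, in the direction of transcription) and its length on the vertical axis (kb) and as a number in bp. Below are the gene bodies, the NFE2 start positions (black ticks) and the composite and AP-1 matches within peaks. The peak of 4273 bp stands over the internal start positions, where 2 of the 4 composites lie so close that their markers coincide.

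Of the 4 composites at NFE2, 2 lay next to an internal start. In the longest peak, the first pair of composites (54295890 to 54295906 and 54295912 to 54295928) lay 138 and 160 bp upstream of the start at 54295760. They were on opposite strands with their GATA ends facing each other, 5 bases apart, and both had a spacing of 8 bases. Over all 11046 peaks, 5 (0.0453%) held 2 composites on opposite strands within 10 bases of each other. That count took either spacing and did not ask which ends faced each other. The NFE2 pair was singled out after its position was seen. The remaining one, also with a spacing of 8 bases, began 950 bases beyond the pair. Another lay in the upstream peak of 1799 bp, 3493 bp upstream of the canonical TSS. At least 3 composites were found in 15 of all 11046 peaks (0.136%), but the longest NFE2 peak is also one of the longest of the list. Its 0.702 composites per kb compare with 0.432 per kb over the whole length of all peaks. Over all NFE2 peaks the density was 0.431 per kb, and over the 16 peaks it was 0.434 per kb. Both values were close to that of all peaks, so composites were not denser at NFE2 than elsewhere in the list.

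Part of the longest peak is repeated sequence. Each stretch of 31 bases was counted in hg38 on both strands, and 81.3% of those in the longest peak occurred once. The 31 bases at its midpoint occurred 1098 times. The repeated stretches lay at the midpoint (54296142 to 54296421), on the side of the canonical TSS, and at both ends. The 31 bases centred on each of the 4 NFE2 composites occurred once. The peak over the canonical TSS consisted wholly of sequence found once, and 80.4% of the upstream peak of 1799 bp was. Whether reads shared between copies lengthened any peak was not tested.

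**Figure D4:**
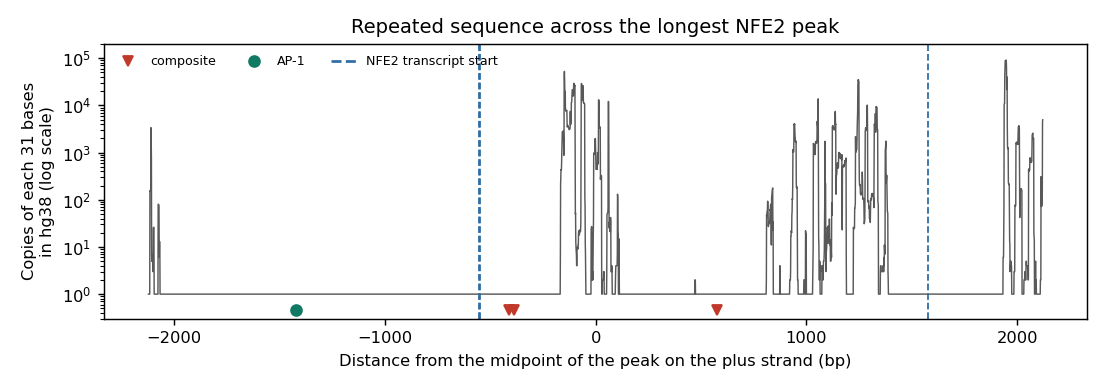
The line shows how often each 31 bases of the longest NFE2 peak occur in hg38 (log scale) against the distance in bp from the midpoint of the peak. Triangles mark composites, the circle marks the AP-1 match and dashed lines mark NFE2 start positions. The 3 composites and the AP-1 match sit where the count is 1, while the midpoint sits in repeated sequence.

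NFE2L2, which encodes the antioxidant regulator NRF2, had a peak at its promoter. This peak (chromosome 2, 177264750 to 177265520, 771 bp) began 23 bp upstream of the canonical TSS at 177264727. It contained 2 minor start positions, and its midpoint lay 408 bp upstream of the canonical TSS. It was longer than most, since 18.5% of all peaks were at least as long. There was a GATA site on each strand but no composite. The GATA site nearer the midpoint is shown in capitals within its surrounding sequence.

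NFE2L2, promoter peak, chr2:177265127-177265192: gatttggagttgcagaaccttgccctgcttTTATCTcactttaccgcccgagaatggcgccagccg

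The second NFE2L2 peak (231 bp) was among the shortest of the list, with 99.2% of all peaks at least as long, and lay 17695 bp upstream of the canonical TSS within longer annotated transcripts. The gene body of NFE2L2 spans 174090 bp in GENCODE, compared with 34420 bp for the canonical transcript.

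BACH2, a repressor known from B cells, had both of its peaks within introns, on chromosome 6. The longer (90044679 to 90045385, 707 bp) lay in intron 5, 251811 bp from the canonical TSS. It held 5 GATA sites, or 7.07 per kb, the highest density among the 16 peaks, and 1 composite with a spacing of 7 bases. Over all peaks there were 2.64 GATA sites per kb. The shorter (90219492 to 90219825, 334 bp) lay in intron 3, with its midpoint 92 bp from a minor BACH2 start position, and had no GATA site. The promoter of the canonical transcript had no peak.

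BACH1, the heme-sensing repressor of HMOX1, had peaks only beyond its far end, on chromosome 21. Both lay in introns of GRIK1, a glutamate receptor subunit gene, and the longer overlapped a GRIK1 coding exon. They measured 1365 bp (29641621 to 29642985) and 330 bp. The GENCODE body of BACH1 spans 436681 bp, but its canonical transcript spans 47227 bp, and the nearest peak was 295473 bp from that transcript. The longer peak had 4 GATA sites, 1 composite with a spacing of 7 bases and 1 AP-1 match. When the canonical transcript with 20 kb on each side was taken as the window, BACH1 had no peak and 5 genes with 14 peaks were left.

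NFE2L3 and the small MAF genes held little. The 1 peak of NFE2L3 (254 bp) lay 3443 bp upstream of its TSS on chromosome 7, and 13.8% of its 31-base stretches occurred once in hg38. MAFG, on chromosome 17, had 1 peak (81932118 to 81932671, 554 bp), 4659 bp upstream of its canonical TSS. The midpoint of this peak lay in the last exon of PYCR1, an enzyme gene of proline synthesis. It was also 4 bp from the TSS of another annotated gene, ENSG00000263585. The nearest peak was 35774 bp from the body of MAFF, 73182 bp from that of MAFK and 111787 bp from that of NFE2L1. At NFE2L1, the activator of proteasome genes, no window up to 50 kb on each side reached a peak.

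In length the peaks of the 9 genes covered most of the range of the list, from 231 to 4273 bp with a median of 496 bp, compared with 229 to 4856 bp and a median of 451 bp for all peaks. The median was 496 bp for the 8 NFE2 peaks and 444 bp for the other 8. Of the 16 midpoints, 8 (28.0 to 72.0% of them) lay within 3 kb of the TSS of any annotated transcript, compared with 35.6% of all peaks. The central 31 bases were repeated in hg38 in 2 of the 16 peaks, 1 at NFE2 and 1 at NFE2L3, compared with 10.7% of all peaks.

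**Figure D5:**
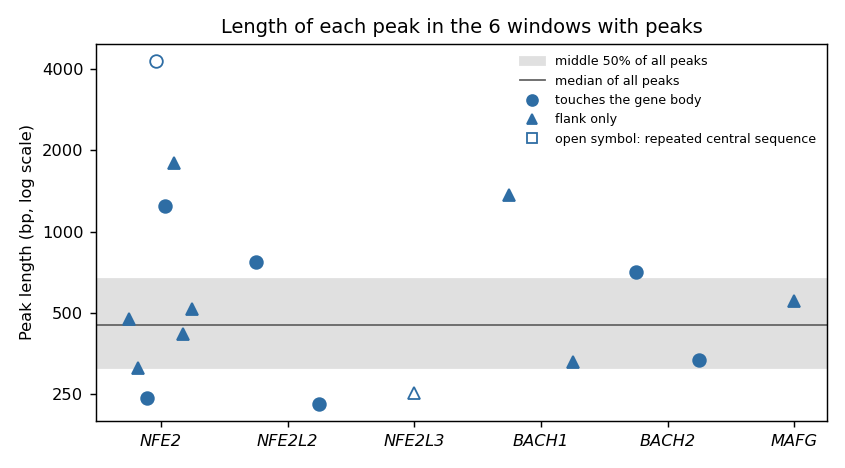
Each point is 1 of the 16 peaks, with its length in bp on a log scale, by gene. Circles touch the gene body, triangles lie in the flanks, and open symbols have a repeated central sequence. The grey band and line show the middle 50% and the median (451 bp) of all peaks. The NFE2 peaks range from 243 to 4273 bp, and the longest peak of any other gene is 1365 bp at BACH1.

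To ask whether the peaks carry the element that the 9 factors themselves bind, motifs were counted on both strands in the 200 bp around each midpoint. The AP-1 motif was TGAGTCA or TGACTCA, and the NF-E2 site was TGC followed directly by an AP-1 motif. An NF-E2 site was found in 0 of the 16 peaks (upper limit 19.4%), compared with 0.905% of all peaks. None was found over the whole length of the peaks either, and the shorter letters TGCTGAGT and TGCTGACT were also not found. At that share of all peaks, 16 peaks are too few to show a difference. AP-1 was found in 1 of 16 (6.25%, 1.11 to 28.3%), compared with 9.48% of all peaks. Over the whole length of the peaks there were 5 AP-1 matches, 3 at NFE2 and 2 at BACH1, each in a peak of its own, and 19.2% of all peaks held one. Per kb there were 0.362 AP-1 matches in the 16 peaks, compared with 0.395 in all peaks, so AP-1 was not denser here. The match near the midpoint was in the upstream NFE2 peak of 1799 bp. It is shown with the one in the longer BACH1 peak, with the motif in capitals.

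NFE2, upstream peak of 1799 bp, chr12:54304815-54304881: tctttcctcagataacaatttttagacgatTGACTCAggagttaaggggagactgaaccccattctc
BACH1, peak of 1365 bp, chr21:29642470-29642536: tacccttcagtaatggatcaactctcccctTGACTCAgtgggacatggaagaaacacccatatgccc

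The antioxidant response core TGACNNNGC, which allows any base at N, was found in 3 of the 16 windows (18.8%, 6.59 to 43.0%), compared with 11.3% of all peaks. Over whole peaks there were 11 matches, and 5 of them were centred on 31 bases that occur more than once in hg38. The 5 AP-1 matches and all 6 composites were centred on 31 bases found once.

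Of the motifs of the LDB1 complex, the GATA site was found in 6 of 16 windows (37.5%, 18.5 to 61.4%), compared with 47.1% of all peaks. The E-box (CAGATG or CAGCTG or CAGGTG) was found in 9 of 16 (56.2%, 33.2 to 76.9%), compared with 45.8%. The CACC motif CCNCACCC of KLF factors was found in 3 of 16 (18.8%, 6.59 to 43.0%), compared with 13.6%. Each interval included the value of all peaks. No composite lay wholly in the 200 bp around any midpoint (upper limit 19.4%), compared with 11.1% of all peaks. The centres of the 6 composites lay 94 to 578 bp from the midpoint of their peak, and the nearest, in BACH2, reached past the edge of the 200 bp. Over the whole length of the peaks a composite was found in 4 of 16, compared with 22.4% of all peaks.

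The genes around these factors were counted in the same windows, beside the 31.7% of all protein-coding genes. Of 10 genes that control the stability of these factors, such as KEAP1, 3 (10.8 to 60.3% of them) had a peak, namely SQSTM1, BTRC and DDI2, while KEAP1 and CUL3 had none. Of 17 antioxidant and heme genes, 5 (29.4%, 13.3 to 53.1%) had a peak. ABCC1 had 6, FTL 5, FTH1 2 and SRXN1 2, and BLVRB had 1 of 2636 bp, while HMOX1, NQO1, GCLM and GCLC had none. Of 31 proteasome subunit genes, 8 (25.8%, 13.7 to 43.2%) had a peak. Of the 4 large MAF genes 1 had a peak, MAFA. These shares lay near that of all genes.

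Of 7 NF-E2 target genes of platelets and red cells, 6 (85.7%, 48.7 to 97.4%) had a peak in the window, compared with 31.7% of all protein-coding genes. A peak touched the body of 4 of them, compared with 16.5% of all protein-coding genes. Window length was not allowed for. TBXAS1, which encodes thromboxane synthase, had 7 peaks, all of which touched its body. LIMS1 had 4, and FECH, an enzyme gene of heme synthesis, had 3. TUBB1, the platelet tubulin gene, had 2. HBB and HBG1 were both counted through 1 shared peak of 352 bp, which lay outside both bodies, and RAB27B had none.

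A peak is no measure of expression, so the cell line could be checked against markers only in this way. Of 10 granulocytic and promyelocytic genes, 8 had a peak in the window and 4 in the body, with 19 distinct peaks, and MPO and CTSG had none. The 8 genes are not separate findings, since AZU1, PRTN3 and ELANE shared peaks. CEBPE alone had 10 peaks. Of 10 red cell genes, 9 had a peak both in the window and in the body, with 51 peaks, and AHSP had none. HBG2 had 7 peaks, 6 of them touching its body as annotated, at 2.39 peaks per 100 kb of window. HBZ had 8 peaks at 15.5 per 100 kb, so the HBG2 window was the longer. Gene and window length were not allowed for in either list. Over all protein-coding genes the shares were 31.7% in the window and 16.5% in the body. The part of this in the NFE2 result was not tested.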

How the data were processed

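The study comprises 2 CUT&Tag libraries of NB4 cells, 1 against LDB1 and 1 with IgG. Per the paper's methods and the labels, reads were aligned to hg38 with Bowtie2 2.4.4, and MACS3 3.0 was run by the authors on read pairs at a q-value limit of 0.01. Use of IgG as the control and removal of duplicates or ambiguous reads are not stated in the sources used here. The deposited values were the bounds and the length (bp) of every peak, counted from 1. The last chromosome X peak ends at 156003136, within the 156040895 bp of hg38. The IgG library was not analysed here.

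Overlaps of at least 1 base with GENCODE release 44 bodies and 20 kb flanks, motif matches and copies of 31 bases were computed with Python 3.11.15, numpy 2.4.6, pandas 2.3.3, pysam 0.24.0 and SciPy 1.17.1, and drawn with matplotlib 3.10.9. Shares carry Wilson 95% intervals. Ranks run over all protein-coding genes. The counting was tested on simulated data. Named peaks were the longest of each gene, the one nearest its canonical TSS, and those with a composite or an NF-E2 site. The genes, lists and rules were chosen with earlier results of these data known, and 1 gene of the NF-E2 target list is not reported here. Alternative windows of 3, 10 and 50 kb, motif windows of 100 and 400 bp, peaks of at least the median length and others were tried. Leaving out NFE2 and taking canonical transcripts were added after seeing the data.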

Additional observations from a re-analysis of the deposited data

How the results depend on the processing

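No paired analysis was possible because there was only 1 LDB1 library and 1 IgG library. Of 60 values of 8 results under alternatives, 45 stayed within the interval of the reported value or, for counts, within 1.5 times, and 15 did not. Each of the 15 was found under a setting that took fewer peaks or other windows, and the cause was not tested. The number of peaks was 7 with the gene body only, 8 with 3 kb on each side, 6 within 3 kb of the genes' own TSS, 9 among peaks of at least the median length, 10 where a member of the 9 genes had the closest protein-coding TSS, and 8 without NFE2. The number of genes with a peak was 3 with the gene body only, with 3 kb on each side and near the genes' own TSS. The GATA share was 62.5% in windows of 400 bp and in whole peaks (71.4% of all whole peaks). The composite share was 25.0% in whole peaks (22.4% of all whole peaks). The AP-1 share was 0% in windows of 100 bp and without NFE2, and 31.2% in whole peaks (19.2% of all whole peaks). Per kb of whole peak there were 0.362 AP-1 matches in the 16 peaks and 0.395 in all peaks. The median length and the share near a TSS stayed within their intervals in all of their alternatives, and the NF-E2 site was found under none of its alternatives. With 50 kb on each side there were 21 peaks at 7 genes. With 16 peaks from 1 library, shares are loosely bounded.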

Other observations

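RUNX motifs (TGTGGT or TGCGGT) were found in the central 200 bp of 3 of the 16 peaks (18.8%, 6.59 to 43.0%), compared with 20.5% of all peaks. Over whole peaks there were 11 matches, and 9 of them were in the 8 NFE2 peaks. The density of RUNX motifs was 0.970 per kb in the NFE2 peaks, 0.440 per kb in the peaks of the other genes and 1.13 per kb in all peaks. GC content of the central 200 bp ranged from 39.0 to 60.5%, and the median of all peaks was 51.5%.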
